A study of Mus musculus with 16 samples.

Results

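Notch receptors, their ligands and the genes that read out or restrain the signal were followed in MKα3− and MKα3+ keratinocytes given laminin-332 (LN332) or vehicle. The set was defined by gene symbol and named 10 genes, *Notch1*, *Notch2*, *Notch3*, *Jag1*, *Jag2*, *Dll1*, *Hes1*, *Hey1*, *Dtx4* and *Numb*, of which 9 had a row among the 14474 genes of the counts table. *Hey1* had no row there and was not analysed here. Every gene with a row had over 0.5 CPM in at least 6 libraries. Whether *Hey1* was left out for low counts cannot be told from the counts. MKα3− cells are immortalized mouse keratinocytes without integrin α3. MKα3+ cells are MK−/− cells given human α3, so both come from null cells and the rescued subunit is human. Both lines grew on collagen in low-calcium medium at 33 °C with 8% CO2, and received 0.02 mg/mL LN332 or an equal volume of vehicle (PBS with glycine and sodium azide) for 16 to 24 h. RNA was sequenced from 4 replicates of each of the 4 groups. No label says that replicates were separate cultures, so each p-value measures the spread between these samples, which may be technical. The comparisons ask how the level of each transcript differed between the lines, with and without added LN332, and with LN332 in each line. The labels name a single null and a single rescued line. An effect of α3β1 integrin therefore cannot be told apart from other differences between the lines. The terms α3 comparison, α3 difference and α3 call below mean MKα3+ against MKα3− cells.

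Notch receptors are single-pass membrane proteins that bind Jagged or Delta-like ligands on neighbouring cells. After binding, the receptor is cut by an ADAM metalloprotease and then by γ-secretase, and the freed intracellular domain joins the DNA-binding protein RBPJ to activate genes of the HES and HEY families. In epidermis the pathway is best known for the move of keratinocytes from the basal layer into differentiation. Transcript level does not measure receptor cleavage, so the values describe RNA of the pathway's parts, and in a culture a smaller number of expressing cells and less RNA per cell cannot be told apart.

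The counts are given as counts per 1000000 (CPM) with TMM (trimmed mean of M-values) factors, and log2 fold changes, their standard errors and adjusted p-values come from a limma-voom fit of all 16 libraries. A gene passed the threshold at an adjusted p-value under 0.05 with an absolute log2 fold change over 0.5. Total counts ran from 21735708 to 29338370 per library. The LN332-treated MKα3− libraries 1 and 4 stood apart, with the highest share of *Rn45s* ribosomal RNA (1.42%, against 0.502 to 1.06% elsewhere) and the lowest total count. Mitochondrial transcripts took 0.133 to 0.188% of counts in replicate 1 of the 4 groups and 0.0301 to 0.106% in the others. The targeted gene, mouse *Itga3*, was not called between the lines, at 259 ± 42.4 against 277 ± 46.8 CPM with vehicle (MKα3− against MKα3+, SD, n = 4; log2 fold change 0.09, adjusted p = 0.694). A count over the whole mouse gene checks neither a partial deletion nor a human transgene, so the lines are named by their labels. All 12 basal keratinocyte markers were in the table, with a summed level of 12449 to 26195 CPM. The fibroblast list had 4 of 6 markers (11.4 to 39.4 CPM summed, without *Dcn* and *Lum*), the melanocyte list 2 of 5 (4.70 to 10.6 CPM, without *Tyr*, *Mlana* and *Dct*) and the endothelial list 4 of 4 (3.33 to 6.45 CPM). The immune list had 3 of 4 markers (12.9 to 60.0 CPM, without *Cd3e*), and *Itgam* in it was higher in vehicle-treated MKα3+ cells by 3.09 (SE 1.10) on the log2 scale (adjusted p = 0.0432) and at 1.73 (SE 1.09, adjusted p = 0.245) with LN332. The melanocyte marker *Pmel* was lower in MKα3+ cells in both media (−1.26 and −0.93, SE 0.23 and 0.24, adjusted p = 0.000589 and 0.00760). Of the basal markers *Lamb3* and *Perp* were lower in both media, and with LN332 *Krt5* and *Trp63* were lower and *Cdh1* higher. No fibroblast or endothelial marker passed between the lines. Whether these markers have a part in the α3 comparisons was not tested.

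In the α3 comparison with vehicle, 1 of the 9 genes passed the threshold (*Dtx4*, higher in MKα3+ cells) and 8 did not, beside 18.5% of all 14474 genes. With LN332 in both lines, 2 of 9 passed (*Dtx4* and *Notch2*, both higher in MKα3+ cells), beside 20.6% of all genes. Those shares are near or under the background. The vehicle and LN332 comparisons of the lines use different libraries. LN332 against vehicle in MKα3− cells moved 0 of 9 past the threshold in limma-voom, edgeR's quasi-likelihood test and DESeq2 alike, beside 0.304% of all genes. An unadjusted limma-voom p under 0.05 was found for 2 of 9, beside 2023 of all 14474 genes. In MKα3+ cells 1 of 9 passed the threshold in limma-voom and 0 in edgeR's quasi-likelihood test, beside 0.187% of all genes in limma-voom. That gene was *Dtx4*, whose lower level there was known from earlier results of these data. It is described for that comparison without a test. Which values led to the choice of the 9 genes is not stated, and the α3 comparisons share libraries with that one. The LN332 backgrounds are unstable. The 27 genes behind 0.187% became 0 without vehicle-treated MKα3+ replicate 2 or 4 or LN332-treated MKα3+ replicate 3 or 4, and 218 under the replicate block. The 44 genes behind 0.304% ranged from 1, without vehicle-treated MKα3− replicate 3, to 150, without LN332-treated MKα3− replicate 1, and were 259 under the block. The median log2 fold change of the 9 genes was 0.00083 in vehicle and 0.07 in LN332 for the α3 comparisons, beside 0.0056 and 0.0062 for all genes. For LN332 it was −0.18 in MKα3− and −0.09 in MKα3+ cells, beside −0.0056 and −0.0067. In the test of whether the LN332 response differed between the lines, 0 of 9 passed in limma-voom, edgeR and DESeq2, beside 0% of all genes in limma-voom. There 0 of 9 had an unadjusted limma-voom p under 0.05, beside 164 of all 14474 genes.

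**Figure D1:**
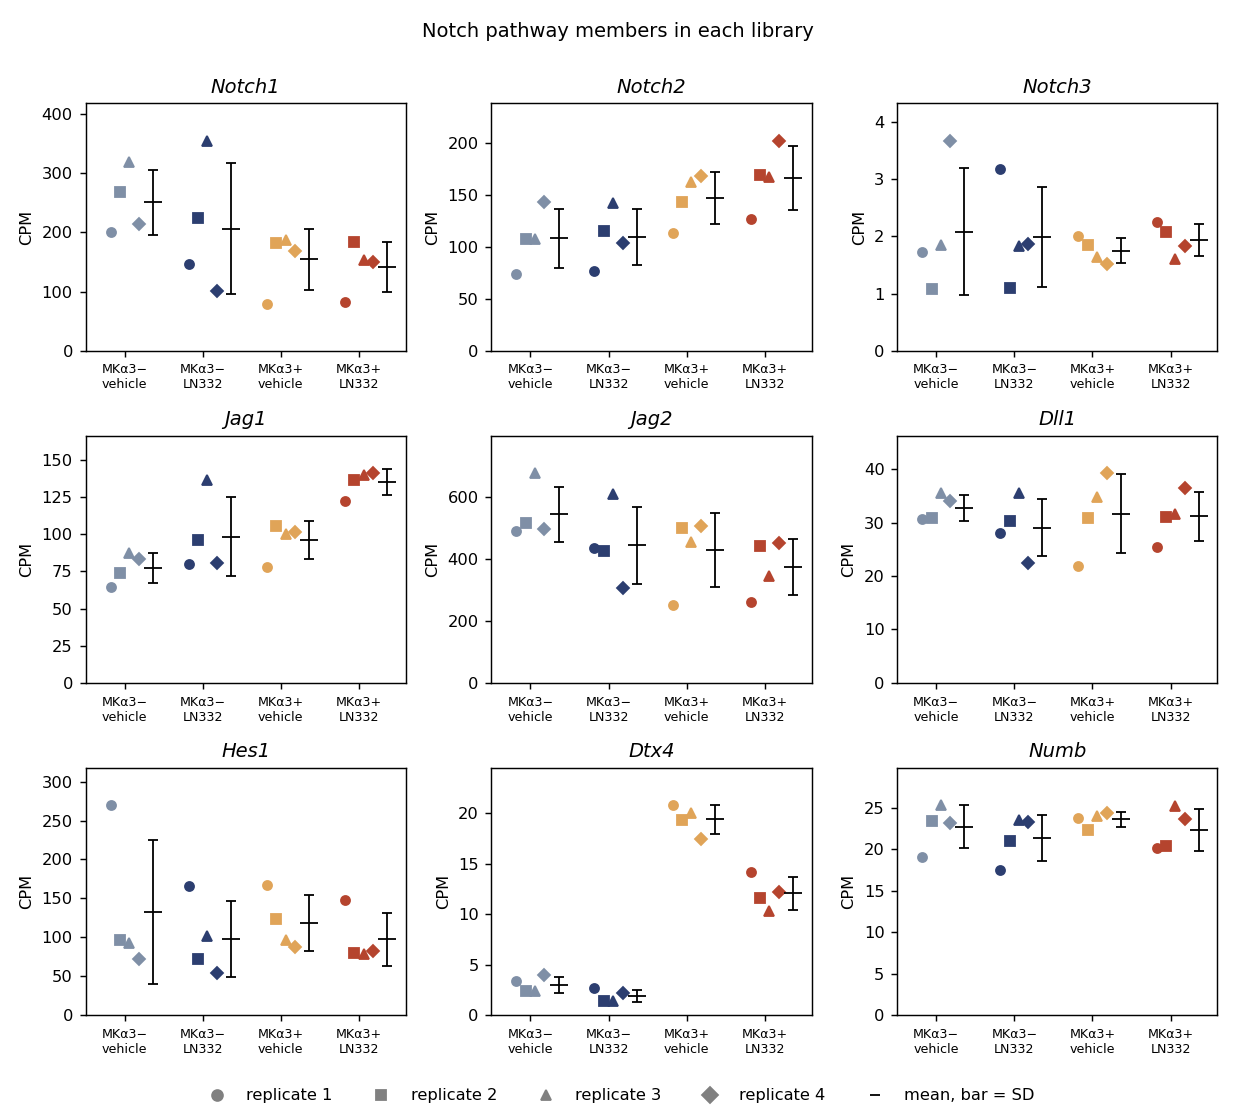
CPM of each of the 9 genes (vertical axes, each starting at 0) in the 16 libraries, by group; the marker shape gives the replicate number, and the bar beside each group its mean and SD (n = 4). *Dtx4* separates the lines, from 1.36 to 3.94 CPM in MKα3− and from 10.3 to 20.8 CPM in MKα3+ cells, while *Notch3*, *Hes1*, *Dll1* and *Numb* overlap between all groups.

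Levels can be compared between genes only per length of transcript, and on the scale of CPM per kilobase of coding-transcript exons *Jag2* had the highest mean in every group, from 73.3 to 107. *Hes1* came next with means of 66.3 to 90.3, and its libraries overlapped those of *Jag2* in every group. *Notch1* was the third in MKα3− cells (26.4 ± 5.71 CPM per kilobase in vehicle, SD, n = 4) and *Jag1* in MKα3+ cells (17.1 ± 2.23 in vehicle, SD, n = 4). The libraries of *Jag1* and *Notch1* overlapped in LN332-treated MKα3− and vehicle-treated MKα3+ cells, and did not in the other 2 groups. *Notch2* had means of 10.3 to 15.9, with libraries that overlapped those of *Notch1* in MKα3+ cells. *Dll1* and *Numb* followed, with means of 8.11 to 9.15 and 5.72 to 6.34. *Dtx4* was the eighth, with group means of 0.362 to 3.71, and *Notch3* the lowest, with means of 0.218 to 0.259. In MKα3− cells the *Dtx4* and *Notch3* libraries overlapped, and in MKα3+ cells they did not.

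*Notch1* encodes the main receptor of mouse epidermis and lies on chromosome 2 (26457902 to 26503822 in GRCm38, the mm10 build, minus strand; Entrez 18128). In vehicle-treated MKα3− cells its level was 201, 269, 319 and 213 CPM in replicates 1 to 4. In vehicle-treated MKα3+ cells it was 78.7, 182, 188 and 169 CPM. All 4 MKα3+ libraries lay under all 4 MKα3− libraries, as in 32.9% of all genes in either direction, but the difference of −0.75 (SE 0.35) on the log2 scale did not pass the adjustment (adjusted p = 0.120). Over 28 alternative settings that adjusted p ran from 0.00347 to 0.334, and in 5 of them *Notch1* passed the threshold, 3 of which used the replicate number as a block. With LN332, *Notch1* had 147, 224, 354 and 101 CPM in MKα3− cells. The values in MKα3+ cells with LN332 were 83.2, 183, 153 and 149 CPM. Here the groups overlapped, the lines differed by −0.43 on the log2 scale (SE 0.34, adjusted p = 0.362), and without the MKα3− libraries 1 and 4 that stood apart it was −1.04 (adjusted p = 0.0430). LN332 against vehicle gave −0.42 (SE 0.35, adjusted p = 0.644) in MKα3− cells, which became 0.18 without those libraries, and −0.10 (SE 0.34, adjusted p = 0.975) in MKα3+ cells. Exons of 2 genes on the opposite strand overlap *Notch1* over 1482 bases and whether counting used strand is not stated, so reads of the strands cannot be told apart.

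*Notch2* had a lower mean level per kilobase than *Notch1* in every group but LN332-treated MKα3+ cells, and is on chromosome 3 (98013538 to 98150367, plus strand; Entrez 18129). MKα3− cells had 74.2, 108, 108 and 144 CPM with vehicle and 77.0, 115, 142 and 104 CPM with LN332. MKα3+ cells had 113, 143, 163 and 169 CPM with vehicle and 127, 170, 167 and 202 CPM with LN332. The receptor was thus higher on average in MKα3+ cells, with ranges that overlapped in both media. The log2 fold change between the lines was 0.46 (SE 0.20, adjusted p = 0.102) in vehicle and 0.62 (SE 0.20, adjusted p = 0.0275) in LN332, and the second passed the threshold. It kept its direction in all 28 alternatives and stayed past the threshold in 22. The call was lost without LN332-treated MKα3− replicate 1 (0.46) or 4 (0.60), without LN332-treated MKα3+ replicate 2 (0.60), 3 (0.60) or 4 (0.51), and without both MKα3− libraries that stood apart (0.36, adjusted p = 0.277). In vehicle the call was gained without MKα3− replicate 4 (0.61). LN332 changed *Notch2* by 0.02 (SE 0.20) in MKα3− and 0.18 (SE 0.21) in MKα3+ cells on the log2 scale, and neither passed (adjusted p = 0.980 and 0.902). By replicate number, *Notch2* was higher with LN332 in 4 of 4 in MKα3+ cells (ratios 1.03 to 1.20) and in 3 of 4 in MKα3− cells. In MKα3+ cells the adjusted p ran from 0.0184 to 0.997 over 28 alternatives, and *Notch2* passed the threshold in 0 of them. A transcript on the same strand shares 541 bases of exon with *Notch2*.

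*Notch3*, known mainly from vascular smooth muscle and suprabasal epidermis, was barely present (chromosome 17, 32120820 to 32166896, minus strand; Entrez 18131). It had 31 to 106 counts per library, or 1.08 to 3.66 CPM. The 2 highest values, 3.66 CPM in replicate 4 of vehicle-treated and 3.18 CPM in replicate 1 of LN332-treated MKα3− cells, were in different groups. Its standard error was 0.34 to 0.35 on the log2 scale in each comparison, the estimates lay between −0.11 and 0.14, and no comparison passed. The coefficient of variation was 53.3% and 43.6% in MKα3− cells (vehicle and LN332) and 12.3% and 14.7% in MKα3+ cells.

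Because the estimates of *Notch1* and *Notch2* between the lines had opposite signs, their ratio within each library was taken as a description, with no test. A ratio of genes picked in this way separates the lines more than either gene. How often other gene pairs separate them was not computed. *Notch1* made up 71.3% ± 6.70 (SD, n = 4) of the summed receptor level per kilobase in vehicle-treated MKα3− cells, 64.8% ± 9.40 with LN332, and 52.3% ± 6.67 and 47.5% ± 5.56 in MKα3+ cells. The *Notch1* to *Notch2* ratio was 3.001, 2.76, 3.27 and 1.64 in vehicle-treated MKα3− libraries and 0.770, 1.41, 1.28 and 1.11 in MKα3+ libraries, with no overlap. With LN332 it was 2.11, 2.15, 2.75 and 1.08 against 0.725, 1.19, 1.01 and 0.818, and MKα3− replicate 4 fell within the range of MKα3+ cells. The receptor sum itself had means of 30.5 to 37.0 CPM per kilobase, with overlapping libraries in all groups.

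*Jag2* was the ligand with the highest level, and *Jag1* the one whose estimates for LN332 were positive in both lines. *Jag1* (chromosome 2, 137081451 to 137116520, minus strand; Entrez 16449) had 64.6, 73.8, 87.1 and 83.1 CPM in vehicle-treated MKα3− cells and 80.0, 95.9, 136 and 80.8 CPM with LN332. Vehicle-treated MKα3+ cells had 77.6, 105, 100 and 101 CPM and LN332-treated MKα3+ cells had 122, 136, 140 and 141 CPM. In MKα3+ cells every LN332 library lay above every vehicle library, which held in either direction for 9.66% of all genes, and each replicate number showed a ratio over 1, from 1.30 to 1.57. That change was 0.50 (SE 0.15) on the log2 scale, just under the minimum of 0.5 before rounding, with an adjusted p of 0.199. With the replicate number as a block shared by all 16 libraries, it was also 0.50 (SE 0.11), with an adjusted p of 0.0190. The change still did not exceed the minimum there. That block fits the same replicate effect in both lines, although same-numbered libraries of other group pairs did not all deviate together. In MKα3− cells the change was 0.32 (SE 0.15, adjusted p = 0.345) and 3 of 4 replicate numbers had a ratio over 1. Averaged over the lines it was 0.41 (SE 0.11, adjusted p = 0.0362), under the minimum fold change, and without the MKα3− libraries 1 and 4 it passed both criteria at 0.53. Between the lines *Jag1* differed by 0.32 (SE 0.15, adjusted p = 0.126) in vehicle and 0.49 (SE 0.15, adjusted p = 0.0187) in LN332. The second value is under 0.5, and exceeded it without LN332-treated MKα3− replicate 3 (0.65) or LN332-treated MKα3+ replicate 1 (0.53).

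*Jag2* (chromosome 12, 112907803 to 112929812, minus strand; Entrez 16450) had 490, 516, 678 and 497 CPM in vehicle-treated MKα3− cells. It had 435, 428, 609 and 306 CPM with LN332 in that line. In MKα3+ cells the values were 253, 500, 455 and 508 CPM with vehicle and 260, 441, 344 and 452 CPM with LN332. Replicate 1 was the lowest MKα3+ library in both media. The groups compared overlapped in each of the 4 comparisons, while LN332-treated MKα3+ libraries all lay below vehicle-treated MKα3− ones. That pair of groups differs in line and medium at once, and the share of all genes separated in it was not computed. The log2 fold changes of *Jag2* were negative in all 4 comparisons, and none passed (adjusted p = 0.252 to 0.911). They ran from −0.38 (SE 0.24) for α3 in vehicle to −0.18 (SE 0.23) for LN332 in MKα3+ cells. For the latter the adjusted p ran from 0.0480 to 0.992 over 28 alternatives, and *Jag2* passed the threshold in 0 of them. *Dll1*, a Delta-like ligand known from epidermal stem cell clusters, was even across groups (chromosome 17, 15367354 to 15376932, minus strand; Entrez 13388). Its mean was 29.0 to 32.8 CPM and no comparison passed (adjusted p = 0.680 to 0.999). An antisense transcript shares 624 bases of exon with it.

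Within each library *Jag2* was 63.9 to 83.9% of the summed level of the ligands per kilobase, and its ratio to *Jag1* is given by group. The estimates of *Jag1* and *Jag2* had opposite signs in all 4 comparisons, so a ratio of them separates groups more than either gene. The share of other gene pairs with ratios that separate groups was not computed, here or for the receptors. In vehicle-treated MKα3− libraries the *Jag2* to *Jag1* ratio was 8.34, 7.69, 8.55 and 6.57. With LN332 it was 5.98, 4.90, 4.91 and 4.17 in that line, below every vehicle library. MKα3+ libraries had ratios of 3.58, 5.23, 4.996 and 5.51 with vehicle and 2.35, 3.55, 2.70 and 3.53 with LN332, again with every LN332 library below every vehicle library. The lines did not overlap in either medium. *Jag1* took 10.7% ± 1.09 (SD, n = 4) of the ligand sum in vehicle-treated MKα3− cells, 15.7% ± 1.87 with LN332, 16.0% ± 2.62 in vehicle-treated MKα3+ cells and 23.1% ± 3.41 with LN332. These shares and ratios were computed as a description and carry no test.

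**Figure D2:**
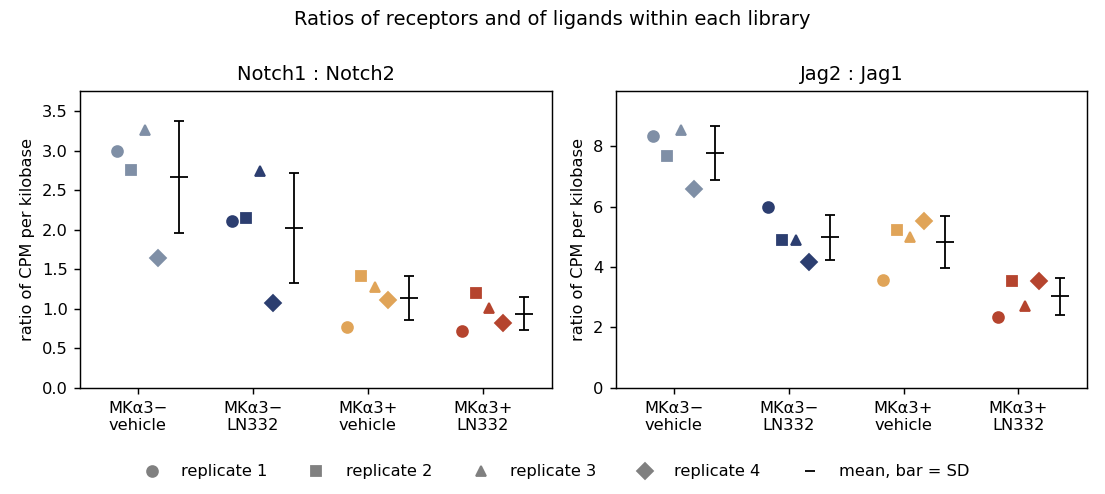
Ratio of *Notch1* to *Notch2* (left) and of *Jag2* to *Jag1* (right), each from CPM per kilobase within a library, by group; marker shapes are replicate numbers, and bars are the mean and SD (n = 4). The *Jag2* to *Jag1* ratio is 6.57 to 8.55 in vehicle-treated MKα3− and 2.35 to 3.55 in LN332-treated MKα3+ libraries, with the other groups between. In both ratios the estimates of the genes had opposite signs between the lines, and the ratios carry no test.

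The receptor and ligand genes whose estimates leaned between the lines, *Notch1*, *Notch2* and *Jag1*, are shown with the 250 bases before their start sites from RefSeq (GRCm38.p6, 5′ to 3′ on the gene's strand), so that the promoters can be read beside the levels. Capitals mark GGAATG or its reverse complement, the core of the TEAD motif, a factor known to act in attached cells, and GTGGGAA or its reverse complement, the core of the RBPJ motif. The motifs do not overlap.
Notch1 (chr2:26503823-26504072, minus strand): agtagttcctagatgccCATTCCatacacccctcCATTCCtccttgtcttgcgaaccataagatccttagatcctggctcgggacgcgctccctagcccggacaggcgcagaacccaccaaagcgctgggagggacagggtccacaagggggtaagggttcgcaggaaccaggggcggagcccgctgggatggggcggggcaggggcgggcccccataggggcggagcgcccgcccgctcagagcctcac
Notch2 (chr3:98013288-98013537, plus strand): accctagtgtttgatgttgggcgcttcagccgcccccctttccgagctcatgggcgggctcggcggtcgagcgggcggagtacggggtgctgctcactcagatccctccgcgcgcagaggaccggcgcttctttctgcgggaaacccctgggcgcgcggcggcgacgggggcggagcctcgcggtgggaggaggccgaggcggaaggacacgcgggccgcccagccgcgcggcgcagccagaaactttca
Jag1 (chr2:137116521-137116770, minus strand): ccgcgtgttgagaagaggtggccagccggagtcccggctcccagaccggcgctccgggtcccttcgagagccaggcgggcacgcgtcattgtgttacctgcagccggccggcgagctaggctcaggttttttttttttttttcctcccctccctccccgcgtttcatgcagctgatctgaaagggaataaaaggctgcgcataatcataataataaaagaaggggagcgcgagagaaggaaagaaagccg
Of these promoters, *Notch1* held 2 TEAD matches, which begin 233 and 216 bases before the start site, and 12.6% of 32851 RefSeq promoters held at least 1 in windows of this length. No RBPJ match was in any of the 10 promoters listed for 7 of the 9 genes, against 5.42% of all promoters, which says only that these letters are not in these windows. A match is no evidence of binding. The promoter table had no entry for *Dtx4* or *Hes1*. G and C made up 66.0% of the *Notch1* window, 72.0% of *Notch2* and 57.2% of *Jag1*.

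*Dtx4* encodes a Deltex E3 ubiquitin ligase that acts on Notch during endocytosis, and it had the only large difference between the lines (chromosome 19, 12466329 to 12502179, minus strand; Entrez 207521). Vehicle-treated MKα3− cells had 3.40, 2.34, 2.34 and 3.94 CPM and LN332-treated ones 2.64, 1.41, 1.36 and 2.15 CPM. The levels in MKα3+ cells were 20.8, 19.3, 20.02 and 17.5 CPM with vehicle and 14.2, 11.6, 10.3 and 12.2 CPM with LN332. No MKα3+ library overlapped any MKα3− library. The lines were apart in this way in 32.9% of all genes with vehicle and in 26.5% with LN332. The gene was 6.58-fold higher (95% CI 5.01 to 8.64) in MKα3+ cells with vehicle, or 2.72 on the log2 scale (SE 0.19, adjusted p = 1.24e-08). With LN332 it was 6.64-fold higher (95% CI 4.74 to 9.30), or 2.73 on the log2 scale (SE 0.23, adjusted p = 1.26e-07). Both calls held in all 28 alternatives, with log2 fold changes of 2.58 to 3.10. These comparisons share MKα3+ libraries with the LN332 comparison in which *Dtx4* was known to be lower. Their adjusted p-values are therefore not free of the choice of the gene.

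For LN332 against vehicle the *Dtx4* estimates had the same sign in both lines. In MKα3+ cells, where its lower level was known beforehand, the log2 fold change was −0.69 (SE 0.14) and each replicate number had a ratio of LN332 to vehicle of 0.515 to 0.696. The gene passed the threshold there in 13 of 28 alternatives, and did not in 12 of the 16 fits with 1 library left out. In MKα3− cells the log2 fold change was −0.70 (SE 0.26) with an adjusted p of 0.250, which did not pass, and the ratios were 0.546 to 0.775. The groups overlapped there, with 1.36 to 2.64 CPM against 2.34 to 3.94 CPM. The smallest *Dtx4* count in a library was 38.

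**Figure D3:**
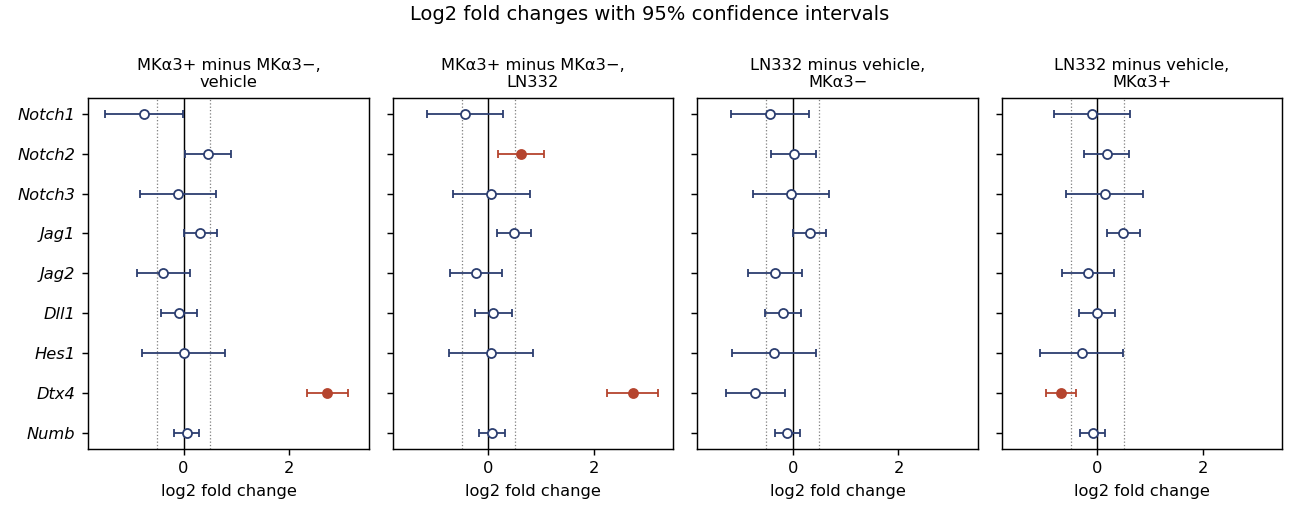
Log2 fold change of each gene in the 4 comparisons (horizontal axes) with its 95% confidence interval from limma-voom; filled red points passed the threshold, open blue points did not, and dotted lines mark the minimum of 0.5. *Dtx4* lies near 2.7 in both α3 comparisons; its filled point for LN332 in MKα3+ cells comes from a comparison in which its lower level was known beforehand.

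*Hes1*, a transcriptional repressor and the classical target of Notch, differed more between replicate numbers than between groups (chromosome 16, 30065357 to 30067796, plus strand; Entrez 15205). Vehicle-treated MKα3− cells had 270, 97.1, 92.0 and 71.5 CPM, and with LN332 165, 71.9, 102 and 53.8 CPM. MKα3+ cells had 167, 124, 96.3 and 86.8 CPM with vehicle and 148, 80.2, 78.3 and 82.8 CPM with LN332. Replicate 1 was the highest library in all 4 groups. The share of mitochondrial transcripts was also highest in replicate 1 of every group, and its part in the *Hes1* levels was not tested. The lines differed by 0.00083 (SE 0.38, adjusted p = 0.999) in vehicle and 0.06 (SE 0.37, adjusted p = 0.925) in LN332. LN332 gave −0.35 (SE 0.38, adjusted p = 0.740) in MKα3− cells and −0.29 (SE 0.37, adjusted p = 0.909) in MKα3+ cells. By replicate number, *Hes1* was lower with LN332 in 4 of 4 in MKα3+ cells (ratios 0.649 to 0.953) and in 3 of 4 in MKα3− cells. In MKα3+ cells the adjusted p ran from 0.0134 to 0.997 over 28 alternatives, and *Hes1* passed the threshold in 0 of them. The 95% confidence interval of the α3 difference in vehicle, from −0.79 to 0.79, leaves changes of that size unresolved.

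**Figure D4:**
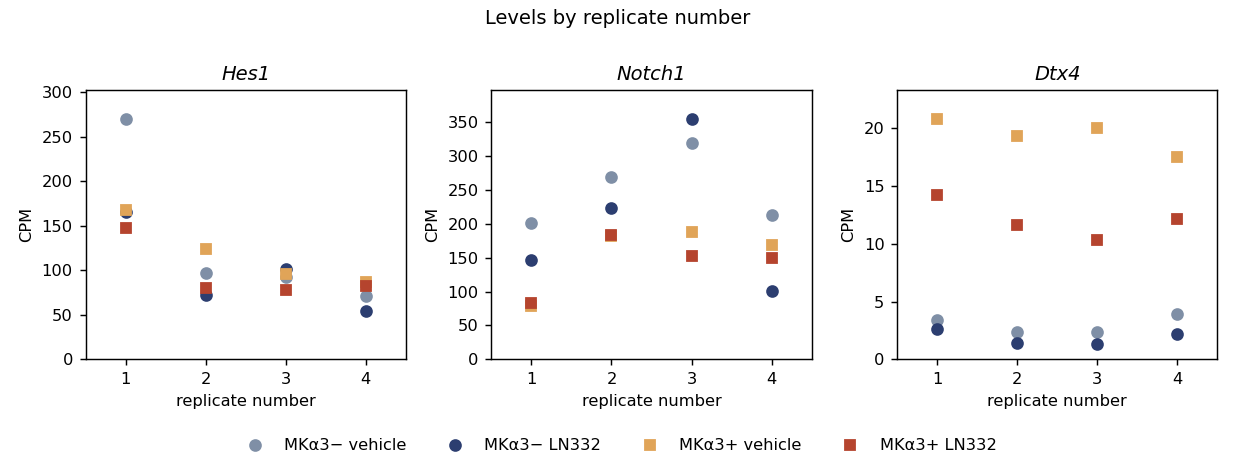
CPM of *Hes1*, *Notch1* and *Dtx4* against the replicate number of the library (a label with no order), circles for MKα3− and squares for MKα3+ cells, darker for LN332. All 4 highest *Hes1* values, 148 to 270 CPM, are in replicate 1, while *Dtx4* separates by line at every number.

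*Numb*, an endocytic adaptor that restrains Notch, was the steadiest of the 9 (chromosome 12, 83794034 to 83921942, minus strand; Entrez 18222). It had 17.5 to 25.3 CPM in the 16 libraries and group means of 21.3 to 23.6 CPM. Its log2 fold changes were between −0.10 and 0.07 in the 4 comparisons, with standard errors of 0.11 to 0.12, and none passed (adjusted p = 0.666 to 0.915).

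The rest of the pathway was read from 9 lists of 63 genes by role, of which 52 were in the table. Between the lines in vehicle, 5 of 52 were higher in MKα3+ cells, 3 were lower and 44 did not pass. Over all genes 10.9% were higher and 7.56% lower. The 52 genes had a median log2 fold change of −0.11. In LN332, 6 were higher, 7 lower and 39 did not pass, beside 11.7% higher and 8.92% lower of all genes, with a median of −0.07. All 8 genes that passed in vehicle also passed in LN332 in the same direction, which is 61.5% of the 13. The like overlap over all genes was not computed, so this agreement cannot be read as particular to the pathway. LN332 against vehicle moved 0 of 52 past the threshold in either line in limma-voom. Unadjusted limma-voom p-values under 0.05 numbered 11 of 52 in MKα3− and 6 of 52 in MKα3+ cells. Over all 14474 genes they numbered 2023 and 1388. The quasi-likelihood test of edgeR called 0 of 52 in both lines, and DESeq2 called 0 and 1 (*Neurl1b*).

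**Figure D5:**
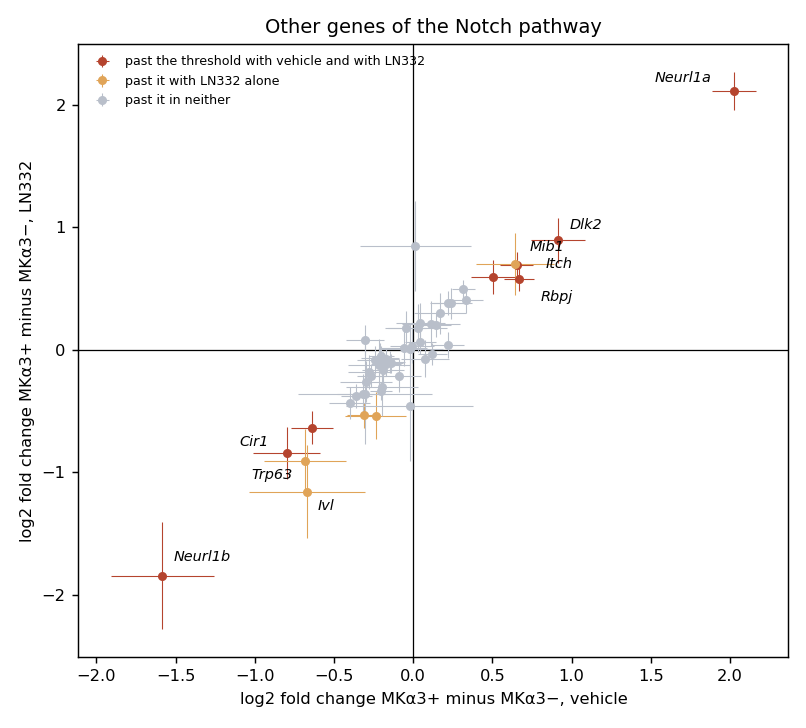
Log2 fold change between the lines of the 52 other pathway genes with vehicle (horizontal) and with LN332 (vertical), each with its SE; the axes use different libraries. Red genes passed the threshold in both media, among them *Neurl1a* at 2.03 and 2.11 and *Neurl1b* at −1.58 and −1.84; orange genes passed with LN332 and not with vehicle.

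Among 6 genes of ligand endocytosis the related E3 ligases *Neurl1a* and *Neurl1b*, which ubiquitinate Notch ligands, went opposite ways. *Neurl1a* (chromosome 19, 47178820 to 47259441, plus strand) had 4.68 to 6.77 CPM in vehicle-treated MKα3− and 21.7 to 24.8 CPM in MKα3+ cells, a 4.07-fold difference (log2 2.03, SE 0.14, adjusted p = 1.44e-08). With LN332 it had 3.41 to 5.66 against 18.6 to 23.4 CPM (log2 2.11, SE 0.15, adjusted p = 2.33e-08). *Neurl1b* (chromosome 17, 26414859 to 26446321, plus strand) had 10.1, 7.56, 21.9 and 16.1 CPM in vehicle-treated MKα3− cells and 3.97, 4.41, 4.27 and 4.39 CPM in MKα3+ cells, and was lower (log2 −1.58, SE 0.33, adjusted p = 0.00147). In LN332 it had 7.06, 4.84, 11.6 and 6.94 against 1.65, 1.75, 2.26 and 2.47 CPM (log2 −1.84, SE 0.43, adjusted p = 0.00362). Every LN332 library of MKα3+ cells was below every vehicle library of that line, a separation seen in either direction in 9.66% of all genes. That change, −1.07 (SE 0.46, adjusted p = 0.451), passed with the replicate number as a block, at −1.05 (SE 0.26, adjusted p = 0.0411). In MKα3− cells the LN332 change of *Neurl1b* was −0.81 (SE 0.29, adjusted p = 0.231), with groups that overlapped. Each replicate number was lower with LN332 there too, and that change also passed with the block. *Mib1*, another ligase for the ligands, was at 0.70 (SE 0.25, adjusted p = 0.0413) in LN332, a call lost in 10 of 28 alternatives, among them 8 single libraries left out and both MKα3− libraries that stood apart. In vehicle *Mib1* was at 0.64 (SE 0.25, adjusted p = 0.0618), which passed in 9 of 28.

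The nuclear complex had 12 genes in the table. *Rbpj*, its DNA-binding subunit (chromosome 5, 53555779 to 53657445, plus strand), had 34.6 to 39.1 CPM in vehicle-treated MKα3− and 56.6 to 60.8 CPM in MKα3+ cells. It was 1.59-fold higher (log2 0.67, SE 0.10, adjusted p = 4.97e-05), and in LN332 0.58 higher on the log2 scale (SE 0.10, adjusted p = 0.000196). The corepressor gene *Cir1* was lower in MKα3+ cells, by −0.80 (SE 0.21, adjusted p = 0.00889) and −0.84 (SE 0.22, adjusted p = 0.00644). The LN332 calls of *Rbpj* and *Cir1* were lost without both MKα3− libraries that stood apart. *Maml1*, a coactivator, passed in LN332 (−0.53, SE 0.10, adjusted p = 0.000751), a call lost without LN332-treated MKα3− replicate 2 or MKα3+ replicate 3. *Cir1* and *Maml1* share exon bases with genes on the opposite strand.

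Of 6 inhibitor and turnover genes, 2 passed and were higher in MKα3+ cells. *Itch*, an E3 ligase that degrades Notch, rose by 0.65 (SE 0.10, adjusted p = 0.000153) in vehicle and 0.70 (SE 0.11, adjusted p = 8.04e-05) in LN332. *Aak1*, a kinase of endocytic adaptors, was at 0.50 (SE 0.14, adjusted p = 0.0106) and 0.60 (SE 0.14, adjusted p = 0.00310), and its vehicle call, at the edge of the minimum, was lost in 18 of 28 alternatives. Of the 3 other Deltex genes in the table *Dtx3* was lower in MKα3+ cells, by −0.64 (SE 0.13, adjusted p = 0.00141) and −0.63 (SE 0.13, adjusted p = 0.00157), the opposite direction to *Dtx4*. *Dlk2*, a Delta-like protein thought to restrain Notch, was higher by 0.92 (SE 0.17, adjusted p = 0.000584) and 0.89 (SE 0.18, adjusted p = 0.00120), the only 1 of 3 other receptors and ligands to pass.

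None of the 10 receptor cleavage genes, the 5 glycosylation genes or the 2 other HES and HEY genes in the table passed in any of the 4 comparisons in limma-voom. Of 5 keratinocyte genes known to lie downstream of Notch, 0 passed in vehicle and 3 in LN332, all lower in MKα3+ cells, beside 8.92% lower of all genes in LN332. Whether the α3 difference of these genes depended on the medium is covered by the test of the LN332 response between the lines, in which no gene passed. *Trp63*, the transcription factor of basal keratinocytes, which Notch is known to repress and which is also in the basal marker list, was lower by −0.91 (SE 0.26, adjusted p = 0.0128). In vehicle it was at −0.68 (SE 0.26, adjusted p = 0.0583), which passed in 10 of 28 alternatives. The cornified envelope gene *Ivl* was at −1.16 (SE 0.38, adjusted p = 0.0266) on 1.30 to 6.32 CPM, and at −0.67 (SE 0.37, adjusted p = 0.187) in vehicle. Its LN332 call was lost without LN332-treated MKα3− replicate 3 or LN332-treated MKα3+ replicate 1 or 2. The suprabasal keratin gene *Krt10* was at −0.54 (SE 0.19, adjusted p = 0.0422) on 4.42 to 8.99 CPM, and that call was lost in 11 of 28 alternatives, among them 9 single libraries left out and both MKα3− libraries that stood apart.

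By Pearson correlation of log2 CPM over the 16 libraries, which share line and medium, the genes most like *Dtx4* were *Tnfrsf9* (0.985), *Neurl1a* (0.984) and *Mak* (0.983). Each had its highest group mean in vehicle-treated MKα3+ cells, at 16.9, 22.9 and 3.95 CPM. Those most like *Jag2* were *Slc22a15* (0.948), *Urb1* (0.939) and *Man2a2* (0.938). These values are a description over 16 libraries.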

How the data were processed

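Poly(A) RNA of 16 libraries, 4 per group, was sequenced. The authors used Rsubread for alignment to mm10 and featureCounts with its Entrez annotation for counting, and deposited raw counts, without normalization. The strand setting is not given in the sources used here, and the submitters' processing notes name bcl2fastq 2.20. From the deposited counts, TMM factors (edgeR 4.0.16), voom weights and contrasts (limma 3.58.1, R 4.3.3) were computed over all 14474 genes with a coefficient per group and Benjamini-Hochberg adjustment. Requiring over 0.5 CPM in 3 or more libraries removed 0 genes. Adjusted p-values are from limma-voom unless another tool is named. Total counts of 21735708 to 29338370 per library set the counting precision.

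The members, lists and tests were chosen with earlier results of these data known. Named were all members, up to 3 passing genes per list with the largest α3 difference and a mean log2 CPM of at least 0, every list gene passing for LN332, *Rbpj*, and the 3 genes most correlated (log2 CPM with a prior count of 2) with *Dtx4*, *Notch3* and *Jag2*. The genes most like *Notch3* are not reported here. *Maml1* and *Mib1* fall under that rule, and the other marker genes, named after their values were seen for moving with the line, do not.

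Replicate numbers are in the labels. In MKα3+ cells same-numbered LN332 and vehicle libraries deviated together, with correlations of 0.202 to 0.620 in all 4 pairs, so the numbers were taken to pair them in that comparison. The replicate block itself was fitted over all 16 libraries, with the same replicate effect in both lines, unless only the groups compared are named. No pair of replicates differed by as little as sampling noise (smallest chi-square per degree of freedom 5.43). Alternatives were DESeq2 1.42.0, edgeR's quasi-likelihood test, other size factors and filters, the block, quality weights, smaller fits, other minimum fold changes and each library left out; the block in smaller or edgeR fits, the removal of the MKα3− LN332 libraries 1 and 4 together and all alternatives for the wider pathway were added after the data were seen. The setting with no filter repeats the main fit, since no gene was removed. A library left out of a group not compared alters an estimate only through normalization and weights. The alternatives are therefore not independent checks. The fit was tested on simulated data. Positions are from RefSeq GRCm38.p6 and exon lengths from basic protein-coding transcripts of GENCODE vM21.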

Additional observations from a re-analysis of the deposited data

Results flagged for a closer look

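In 3 of 36 groups of 4 libraries, 1 library lay further from the rest than Dixon's 95% limit allows, and chance flags about 1 in 20 such groups, or 1.8 of 36. *Hes1* was at 270 CPM in replicate 1 of vehicle-treated MKα3− cells, with the others at 71.5 to 97.1 CPM. It was at 148 CPM in replicate 1 of LN332-treated MKα3+ cells, with the others at 78.3 to 82.8 CPM. *Jag2* was at 678 CPM in replicate 3 of vehicle-treated MKα3− cells, with the others at 490 to 516 CPM.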

How the results depend on the processing

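The α3 calls of *Dtx4* held in every alternative. In the α3 comparison with vehicle, 1 of the 9 genes passed, 2 with the replicate block, with only the groups compared, with both together and with edgeR and the block (*Notch1* added each time), 3 with quality weights, and 1 to 2 with 1 library left out. With LN332, 2 passed, 1 with a minimum log2 fold change of 1, and 1 to 3 with 1 library left out. For LN332 in MKα3− cells 0 passed and 1 (*Dtx4*) in edgeR with the replicate block. In MKα3+ cells 1 passed (*Dtx4*, known to be lower there when the genes were chosen), 0 with edgeR, library size alone, at least 10 counts in every library or a minimum of 1, and 0 to 1 with 1 library left out. For the average over lines 1 passed (*Dtx4*), 2 without the MKα3− LN332 libraries 1 and 4 and with no minimum (*Jag1* added each time), and 0 with a minimum of 1. The average holds the MKα3+ libraries in which *Dtx4* was known to be lower, so for that gene it is a description without a test. For the wider pathway the counts between the lines were 8 and 13 of 52, 2 and 3 with a minimum of 1, and 15 and 20 with none. Its LN332 count of 0 in MKα3− cells became 1 (*Neurl1b*) in the 3 fits with the replicate block, and in MKα3+ cells 1 with DESeq2, quality weights (*Trp63*), only the groups compared, the block or edgeR with the block, and 2 with only the groups compared and the block. Members that did not pass changed sign near 0. For α3 in vehicle *Hes1* was at −0.16 (edgeR), −0.17 (DESeq2), −0.0076 (RLE factors), −0.012 (library size alone), −0.0032 (only the groups compared), −0.015 (those with the block), −0.0067 (edgeR with the block) and −0.0045 (without MKα3− LN332 libraries 1 and 4), and *Dll1* at 0.051 (quality weights). For α3 in LN332 *Notch3* was at −0.038 (edgeR), −0.042 (DESeq2), −0.020 (block) and −0.025 (only the groups compared with the block), *Hes1* at −0.015 (edgeR) and −0.019 (DESeq2), and *Dll1* at −0.079 without libraries 1 and 4. For LN332 in MKα3− cells *Notch1* was at 0.18 without those libraries and *Notch2* at −0.056 with library size alone. In MKα3+ cells *Dll1* was at 0.0020 (RLE factors) and 0.00031 (at least 10 counts). With 1 library left out, the ranges that crossed 0 were, for α3 in vehicle, −0.38 to 0.21 (*Notch3*), −0.20 to 0.092 (*Dll1*), −0.23 to 0.41 (*Hes1*) and −0.018 to 0.12 (*Numb*). For α3 in LN332 they were −0.22 to 0.32 (*Notch3*), −0.013 to 0.19 (*Dll1*), −0.19 to 0.34 (*Hes1*) and −0.018 to 0.12 (*Numb*). For LN332 in MKα3− cells they were −0.15 to 0.17 (*Notch2*), −0.30 to 0.29 (*Notch3*) and −0.64 to 0.063 (*Hes1*), and in MKα3+ cells −0.40 to 0.14 (*Notch1*) and −0.17 to 0.12 (*Dll1*). Single-gene values for the difference in LN332 response between the lines, and for the average of genes other than *Jag1* and *Dtx4*, were computed under the same alternatives and are not reported, and none of them passed in any. Same-numbered libraries of other group pairs did not all deviate together (20 pairs, 14 over 0.1, range −0.047 to 0.56; the best match had the same number in 28 of 40 cases), so there the block is only an alternative. The cause of these changes was not tested.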
